A study of Mus musculus with 6 samples.

Results

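The dentate gyrus (DG), the granule cell field of the hippocampus, is described here through the RNA of 37 genes. These are genes of the synaptic vesicle and its release machinery and of the postsynaptic density. They comprise 23 presynaptic and 14 postsynaptic genes, were listed by symbol, and were matched to the probes of a bead array that carried 45281 probes. Of these genes, 36 had at least 1 probe, 82 probes in all, and 33 genes had a probe that was tested because every array of at least 1 group detected it. The tested probe was detected on all 6 arrays for 32 of them. Over the whole array, 11222 genes were tested on 21226 probes.

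RNA came from the right DG of 3 mice after kainic acid-induced status epilepticus (KA-SE) and of 3 mice injected with saline, 1 array per mouse. Proteins and synapses themselves were not examined here. Kainic acid is a glutamate receptor agonist, given here as repeated low intraperitoneal doses, and mice entered the KA-SE group only after long seizures of the severe classes. Both groups were male C57/Black6J mice of 6 to 8 weeks, dissected 72 h after injection. Signals are given as background-corrected, quantile-normalized log2 values, and each difference is KA-SE minus saline on this scale with its moderated standard error (SE, n = 3 mice per group).

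At a chemical synapse, vesicles filled with transmitter are held near the active zone, a protein meshwork at the presynaptic membrane. Calcium entry is sensed by synaptotagmin, and the vesicle fuses through a complex of SNARE proteins. The released glutamate acts on receptors that are anchored in the postsynaptic density by membrane-associated guanylate kinases (MAGUKs) and by DLGAP, SHANK and HOMER proteins. Gephyrin anchors receptors at inhibitory synapses, and neurexins and neuroligins join the presynaptic and postsynaptic membranes. In the DG, granule cells receive their main excitatory input on dendritic spines from the entorhinal cortex and send mossy fibres to the hilus and CA3.

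None of the 33 tested synaptic genes passed the test for a difference between KA-SE and saline. At a limma adjusted p under 0.05 over all probes, 0 of 33 genes passed, with a lowest adjusted p of 0.382, whereas 0.312% of all tested genes passed, 0.294% higher and 0.0178% lower in KA-SE. At an unadjusted limma p under 0.05, 2 of the 33 were lower in KA-SE, Dlg2 and Pclo, and 0 were higher. The shares of all genes at this limit were 2.59% lower and 5.85% higher. None of the 33 had an unadjusted limma p under 0.01, a limit that 3.17% of all genes met. Log2 changes ranged from -0.42 for Dlg2 to 0.20 for Vamp1, and the smallest absolute log2 change that passed anywhere on the array was 0.66.

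The intervals give the range of changes that is compatible with these arrays. For 30 of the 33 genes the 95% interval of the log2 change lay within 1.5-fold in either direction, as it did for 86.2% of all tested genes. The exceptions were Dlg2, Pclo and Slc17a6. Standard errors ranged from 0.105 to 0.234, with a median of 0.123. These intervals are not the limit of what the test could call. The smallest absolute log2 change that passed anywhere on the array, 0.66, was larger than 1.5-fold (0.585 on the log2 scale).

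Most estimates were slightly below 0. Of the 33 genes, 24 had a negative log2 change, 72.7% against 50.3% of all genes. They include Unc13a, which was tested only through saline, where it was higher. The count became 29 of 33 when arrays were scaled to a common median, under which 73.8% of all genes were negative. The median log2 change was -0.061 for the 33 genes, -0.064 for the 22 presynaptic and -0.038 for the 11 postsynaptic genes tested, beside -0.0011 for all genes. Median scaling placed all genes at -0.10 and the 33 genes at -0.17. Groups did not overlap for 2 of the 33 genes, Dlg2 and Dlgap1, both lower in KA-SE, and for 0 in the other direction. Among all genes, groups did not overlap for 5.49% lower and 8.56% higher in KA-SE, so that the synaptic genes stood close to that share on the lower side. In these bulk samples, fewer cells of a type and less RNA per cell cannot be told apart.

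**Figure D1:**
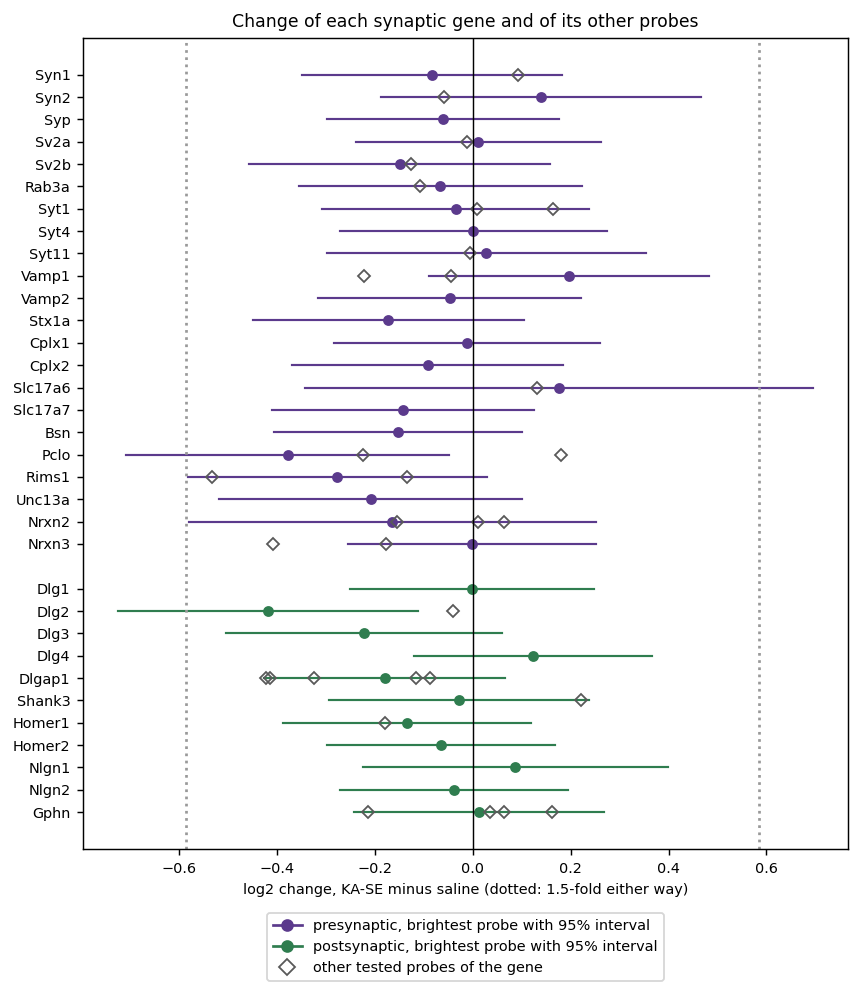
Log2 change in signal (KA-SE minus saline, 3 arrays each) of the 33 tested synaptic genes on the horizontal axis, with the gene's brightest tested probe as a filled point, its 95% interval as a line and the gene's other tested probes as open diamonds. Dotted lines mark 1.5-fold in either direction, which 30 of the 33 intervals did not reach, and the probes of 10 genes lay on both sides of 0.

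The plot of changes by gene also shows how far probes of 1 gene differed. Of the 18 genes with several tested probes, 14 had probes that disagreed in sign or by over 0.2 on the log2 scale, and 10 had probes of both signs. Of all 65 tested probes, 0 passed, against 0.231% of all probes, with a lowest limma adjusted p of 0.293. At an unadjusted limma p under 0.05, 7 probes were lower in KA-SE and 0 higher (3.11% and 5.02% of all probes). At an unadjusted limma p under 0.01, 1 probe, of Rims1, was lower, a limit that 0.636% of all probes met in this direction. Groups did not overlap for 7 probes lower and 2 probes higher in KA-SE (5.75% and 7.33% of all probes). The lower ones were 3 probes of Dlgap1, 2 of Nrxn3, 1 of Dlg2 and 1 of Rims1, and the higher ones belonged to Syt1 and Pclo. The probe of Rims1 and that of Pclo were tested only because the group with the higher signal detected them, so their separation in that direction supports nothing. Among the 62 member probes detected on all 6 arrays, groups did not overlap for 6 lower and 1 higher in KA-SE, 9.68% and 1.61%, against 5.48% and 6.98% of all such probes.

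Upstream sequence was available for 30 of the 37 genes, in 51 windows from 250 bases before to 50 bases after a start site (RefSeq, mouse build GRCm38.p6). Stretches are shown of the 3 genes with the lowest p-values, of the vesicle genes Slc17a7 and Syp as promoters with several GC boxes, and of Syn1 as the carrier of a part of the RE1 element. RE1 is bound by REST, a repressor of neuronal genes. Capitals mark a motif on either strand, and stretches are written 5′ to 3′ on the strand of the gene. Dlg2 has 3 annotated start sites, and the first is shown, at chr7:91090686-91090785 on the plus strand. The others are Pclo at chr5:14514818-14514917 (plus), Rims1 at chr1:22806309-22806408 (minus), Slc17a7 at chr7:45163821-45163920 (plus), Syp at chrX:7638480-7638579 (plus) and Syn1 at chrX:20921109-20921168 (minus).
Dlg2: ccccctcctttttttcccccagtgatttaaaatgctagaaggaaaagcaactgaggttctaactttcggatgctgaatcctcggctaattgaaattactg
Pclo: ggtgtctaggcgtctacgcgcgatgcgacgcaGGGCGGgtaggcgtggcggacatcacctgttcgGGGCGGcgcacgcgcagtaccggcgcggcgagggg
Rims1: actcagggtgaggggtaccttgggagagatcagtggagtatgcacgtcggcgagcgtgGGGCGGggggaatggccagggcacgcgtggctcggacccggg
Slc17a7: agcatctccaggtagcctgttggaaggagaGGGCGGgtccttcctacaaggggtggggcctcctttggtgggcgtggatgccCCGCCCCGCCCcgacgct
Syp: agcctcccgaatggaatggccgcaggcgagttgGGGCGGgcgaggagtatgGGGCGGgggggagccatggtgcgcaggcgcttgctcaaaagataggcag
Syn1: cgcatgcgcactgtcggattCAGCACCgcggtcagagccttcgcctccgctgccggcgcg

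Pclo, Slc17a7 and Syp hold several GC boxes in these stretches, Rims1 holds 1 and Dlg2 holds none of the motifs searched. The GC box, GGGCGG, is recognized by factors of the Sp family. It occurred on either strand in 23 of the 30 synaptic genes, 76.7%, against 38.2% of the 27025 genes with a promoter window and 68.6% of the 9059 of them that were tested on the array. The synaptic genes have more windows per gene, and counted by window the shares were 47.1% of 51 and 35.7% of all 32851. No share by window was computed for tested genes alone. Median GC content was 56.7% in windows of the synaptic genes, 60.7% in those of tested genes and 52.7% in all windows. The core of the cAMP response element, TGACG, occurred in 10 of 30 (33.3%), against 34.8% of tested genes, and in 19.6% of windows, against 20.8% of all windows. The RE1 parts CAGCACC and GGACAG occurred in 4 and 11 of 30 (13.3% and 36.7%), against 9.45% and 26.8% of tested genes. By window, these shares were close to those of all windows, 7.84% against 7.14% for CAGCACC and 21.6% against 22.2% for GGACAG. The genes with CAGCACC were Dlg4, Nlgn1, Syn1 and Unc13a. Both parts together with a gap of 2 bases, CAGCACCNNGGACAG, which contains the single parts, were in 0 of 30 and in 11 of all 27025 genes. This search took exact matches only. In the Syn1 stretch, CAGCACC is followed after 2 bases by ggtcag, which differs from GGACAG in 1 letter. A match describes the letters of the window and is not a site of binding.

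Of the 6 genes of synaptic vesicle proteins, 4 had a negative estimate, with a median of -0.064. Synapsins tie vesicles into the reserve pool. The brightest probe of Syn1 gave 13.24, 13.16 and 13.07 in KA-SE, against 13.41, 13.15 and 13.17 in saline (log2 signal), and its other probe gave 12.38, 12.20 and 12.23 against 12.16, 12.24 and 12.13. The groups overlapped on both probes, whose log2 changes were -0.083 ± 0.120 and 0.092 ± 0.110 (SE). Syn2 gave 12.76, 12.27 and 12.44 in KA-SE and 12.42, 12.17 and 12.47 in saline, a change of 0.14 ± 0.147 that ranged from 0.0060 to 0.25 when each array was left out, the lowest without KA-SE replicate 1 and the highest when KA-SE replicate 2 was left out, while its other tested probe differed by -0.059. The synapsin probes thus carried changes of both signs within each gene, none larger than 0.14.

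Sv2a and Sv2b encode transporter-like glycoproteins of the vesicle membrane, of which SV2A is the binding site of the antiseizure drug levetiracetam. Sv2a had signals of 12.78, 12.67 and 12.54 in KA-SE, against 12.62, 12.61 and 12.71 in saline. Its probes differed by 0.012 and -0.012, so that neither direction was favoured. Sv2b had changes of -0.15 and -0.13 on 2 probes. Syp, which encodes the abundant vesicle protein synaptophysin, differed by -0.061 ± 0.107, and Rab3a, a small GTPase of vesicle docking, by -0.066 and -0.11. All of these groups overlapped.

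The brightest probes of the 3 synaptotagmin genes differed by at most 0.035. Syt1 encodes the calcium sensor of fast release. Its brightest probe gave 14.00, 13.74 and 13.70 in KA-SE, against 13.87, 13.74 and 13.93 in saline, a change of -0.035 ± 0.123. The other probes differed by 0.0083 and by 0.16, and on the last one the groups did not overlap, with 9.07, 9.08 and 8.95 in KA-SE and 8.84, 8.89 and 8.88 in saline (limma adjusted p = 0.791). Syt11, a synaptotagmin that does not bind calcium, had signals of 9.98, 9.90 and 9.55 in KA-SE and 9.58, 9.81 and 9.95 in saline, which overlapped fully. Its probes differed by 0.028 and -0.0062. Syt4, which is induced by activity in other settings, differed by 0.0016 ± 0.123.

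Of the SNARE proteins, VAMP1 and VAMP2 sit on the vesicle, and syntaxin 1A and SNAP25 on the target membrane. Vamp1 had the highest estimate of all 33 genes and also probes of both signs. Its brightest probe gave 9.03, 9.09 and 8.76 in KA-SE, against 8.79, 8.88 and 8.63 in saline (0.20 ± 0.129, limma adjusted p = 0.796), with 0.13 to 0.30 when each array was left out. The other tested probes differed by -0.045 and -0.22, and the mean over its probes by -0.023. Stx1a gave 11.33, 10.99 and 11.19 in KA-SE and 11.40, 11.23 and 11.40 in saline, which overlapped (-0.17 ± 0.125, limma adjusted p = 0.835). The change of Stx1a was -0.083 without KA-SE replicate 2. Vamp2 differed by -0.047 ± 0.121. Complexins clamp the assembled SNARE complex until calcium enters, and Cplx1 and Cplx2 differed by -0.012 and -0.092.

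Snap25 could not be read on these arrays. Its 2 probes were not detected on any of the 6 arrays, with raw intensities between 32.9 and 44.6 and lowest detection p-values of 0.359 and 0.536. A level of Snap25 is therefore not given, and no statement on its change is possible. Shank1, with 2 probes, and Shank2, with 1, were likewise not detected on any array, and no probe was assigned to Nlgn3 here.

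Vesicular glutamate transporters load glutamate into vesicles. Slc17a7, which encodes VGLUT1, gave 11.25, 11.46 and 11.54 in KA-SE, against 11.65, 11.46 and 11.56 in saline, with overlap (-0.14 ± 0.121, limma adjusted p = 0.887). The change of Slc17a7 was -0.060 without KA-SE replicate 1. Slc17a6, which encodes VGLUT2, had the widest spread of any tested synaptic gene and was singled out for it after its values were seen. Its signals were 11.53, 11.24 and 10.45 in KA-SE and 10.86, 11.09 and 10.74 in saline, so that the KA-SE arrays held both the highest and the lowest value. A second probe showed the same order within KA-SE, with 11.44, 11.07 and 10.36, against 10.76, 11.06 and 10.67 in saline. The log2 changes were 0.18 ± 0.234 and 0.13 ± 0.233, and the 95% interval of the first ran from -0.34 to 0.70.

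**Figure D2:**
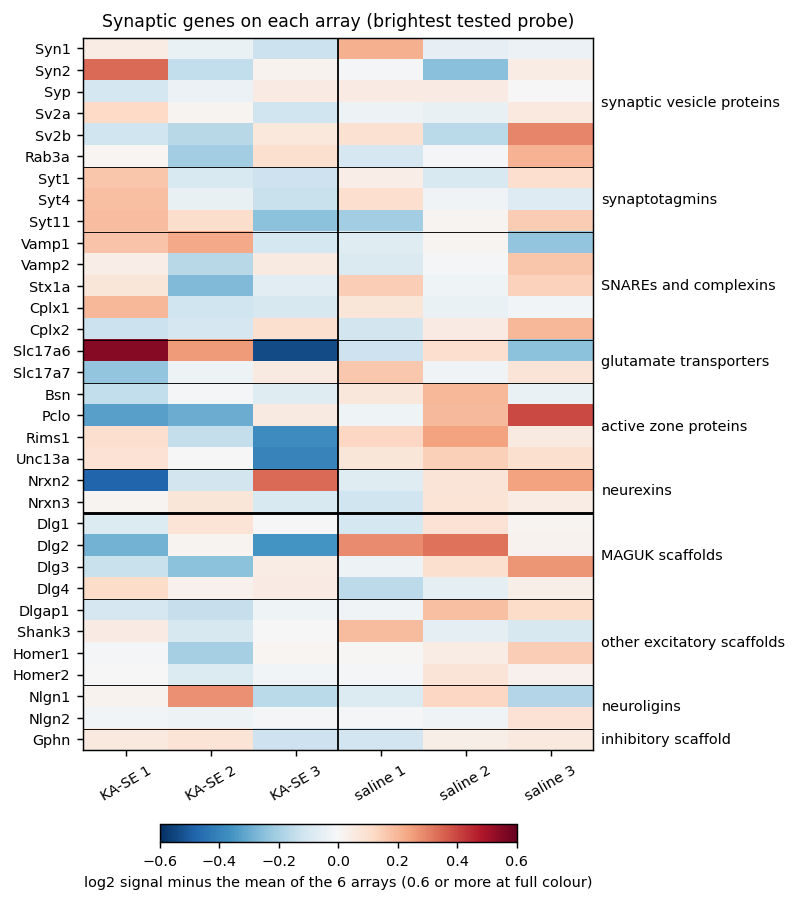
Log2 signal of each of the 33 tested synaptic genes (rows, grouped by role) on each array (columns, KA-SE left of saline), minus the gene's mean over the 6 arrays, red above and blue below that mean. Slc17a6 spans both ends of the scale within KA-SE, whereas Dlg2 and Dlgap1 are the 2 genes whose KA-SE arrays all lie below all saline arrays.

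Active zone genes had the lowest median of the presynaptic groups. All 4 of them, Bsn, Pclo, Rims1 and Unc13a, had negative log2 changes, with a median of -0.24, and none passed. Of these, Unc13a was tested only through saline, where its signal was higher, so its sign supports nothing. The other Unc13a probe, which was not tested, had means of 4.72 in KA-SE and 4.61 in saline. Pclo encodes piccolo and Bsn encodes bassoon, which are large scaffolds of the active zone. Pclo gave 7.17, 7.20 and 7.55 in KA-SE, against 7.47, 7.69 and 7.89 in saline. The highest KA-SE array lay above the lowest saline array, and the log2 change was -0.38 ± 0.149, or 1.30-fold lower (limma adjusted p = 0.513). Without saline replicate 3, the log2 change of Pclo was -0.27.

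Pclo had 2 other probes. One gave 6.99, 6.99 and 7.23 in KA-SE and 6.98, 7.26 and 7.64 in saline (-0.22 ± 0.165). On the dimmest, which was not detected on any saline array and was tested only through KA-SE, the signals were 4.80, 4.86 and 4.88 in KA-SE and 4.67, 4.63 and 4.69 in saline. Against the detection limit of the saline arrays, that signal was at least 1.04-fold higher in KA-SE. Averaged over its probes, Pclo differed by -0.14.

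RIMS1 links vesicles, through RAB3, to calcium channels of the active zone. The brightest probe of Rims1 gave 10.34, 10.10 and 9.86 in KA-SE, against 10.36, 10.48 and 10.29 in saline. One KA-SE array lay within the saline range, and the log2 change was -0.28 ± 0.138 (limma adjusted p = 0.678), or -0.16 without KA-SE replicate 3. A much dimmer probe separated the groups, with 4.65, 4.90 and 5.07 in KA-SE and 5.21, 5.33 and 5.68 in saline. Its log2 change was -0.53 ± 0.154 with a limma adjusted p of 0.293. This probe was detected on 2 of the 3 KA-SE arrays and entered the test only through saline, where it was higher, so that the filter shares in its low p. The remaining tested probe differed by -0.13 ± 0.173.

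UNC13A primes vesicles for fusion. Unc13a had a signal near the detection limit, of 4.90, 4.82 and 4.41 in KA-SE, against 4.88, 4.96 and 4.91 in saline, and its tested probe was detected on 2 of the 3 KA-SE arrays. The change of -0.21 ± 0.140 rested mostly on 1 array and was -0.060 without KA-SE replicate 3. Bsn, also dim, gave 4.95, 5.09 and 5.02 in KA-SE and 5.17, 5.30 and 5.05 in saline, with overlap (-0.15 ± 0.114, limma adjusted p = 0.848, or -0.090 without saline replicate 2).

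Neurexins are presynaptic adhesion proteins with many isoforms. Probes of Nrxn3 gave different results. The brightest gave 9.34, 9.40 and 9.23 in KA-SE, against 9.20, 9.41 and 9.37 in saline (-0.0014 ± 0.114). Another gave 8.70, 8.52 and 9.00 in KA-SE and 9.11, 9.30 and 9.03 in saline, without overlap (-0.41 ± 0.144, limma adjusted p = 0.436). On the third tested probe the groups did not overlap either, and the change was -0.18 ± 0.113. Which transcripts of Nrxn3 each probe detects was not examined here.

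Nrxn2 had 4 tested probes with log2 changes from -0.16 to 0.064. Its brightest probe gave 10.39, 10.75 and 11.20 in KA-SE and 10.79, 10.94 and 11.11 in saline. As for Slc17a6, the KA-SE arrays held both the highest and the lowest value, here with replicate 3 high and replicate 1 low. The change of -0.16 became 0.032 without KA-SE replicate 1, was -0.38 when KA-SE replicate 3 was omitted, and -0.084 when saline replicate 3 was.

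**Figure D3:**
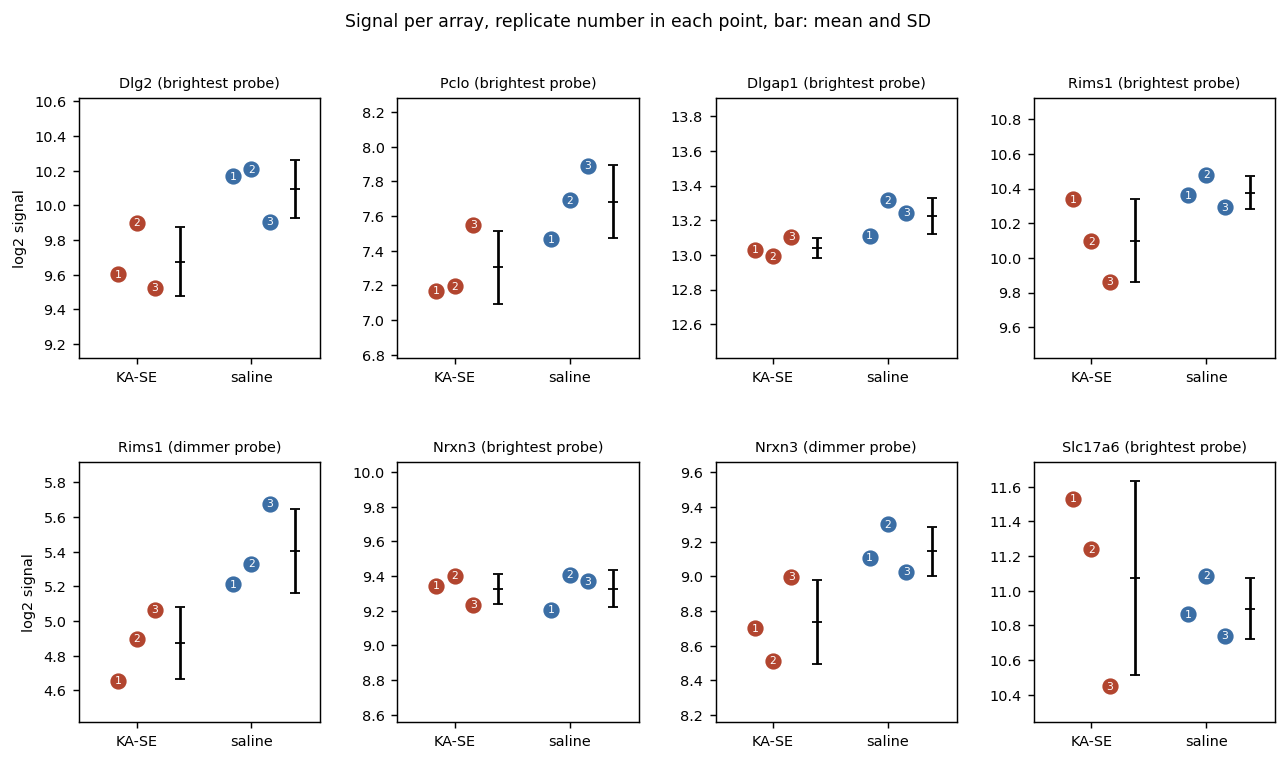
Log2 signal on each array (vertical axis) for 8 probes of 6 synaptic genes, KA-SE in red left of saline in blue, with the replicate number inside each point and the mean with its SD (n = 3) as a bar. Every panel spans the same number of log2 units, so that the separated groups of Dlg2 and the dimmer probe of Rims1 can be set against the wide KA-SE spread of Slc17a6, from 10.45 to 11.53.

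On the postsynaptic side, MAGUKs bind glutamate receptors and ion channels through PDZ domains. Dlg2, which encodes PSD-93, had the lowest p of the 33 genes. Its brightest probe gave 9.60, 9.90 and 9.53 in KA-SE, against 10.17, 10.21 and 9.90 in saline, as the plot of signals by array shows. The groups did not overlap, although the highest KA-SE array and the lowest saline array were both at 9.90. The log2 change was -0.42 ± 0.138, or 1.34-fold lower, and did not pass (limma adjusted p = 0.382). A second, dimmer probe of Dlg2 gave 5.76, 5.74 and 5.72 in KA-SE and 5.76, 5.90 and 5.67 in saline, a difference of -0.040 ± 0.111. The mean over its probes differed by -0.23 (limma adjusted p = 0.613).

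The other MAGUK genes differed less. Dlg3, which encodes SAP102, gave 10.62, 10.51 and 10.80 in KA-SE, against 10.72, 10.85 and 11.02 in saline, with overlap (-0.22 ± 0.127, limma adjusted p = 0.747, or -0.15 without saline replicate 3). Dlg4 encodes PSD-95, the main scaffold of mature excitatory synapses. It gave 9.74, 9.65 and 9.67 in KA-SE and 9.47, 9.57 and 9.66 in saline, with overlap, and its change of 0.12 ± 0.110 (limma adjusted p = 0.899) was -0.0033 under median scaling and 0.075 without saline replicate 1. Dlg1, which encodes SAP97, differed by -0.00095 ± 0.113. Within this family, 3 of 4 estimates were negative, and 0 passed.

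Dlgap1 encodes a guanylate kinase-associated protein that joins PSD-95 to SHANK proteins. It was the gene with the most probes, and all 6 tested ones had a negative log2 change, from -0.42 to -0.086. The brightest gave 13.03, 12.99 and 13.11 in KA-SE, against 13.11, 13.31 and 13.24 in saline, without overlap (-0.18 ± 0.111, limma adjusted p = 0.775). The next gave 10.50, 10.60 and 10.75 in KA-SE and 10.84, 11.05 and 10.93 in saline, also without overlap (-0.32 ± 0.118, limma adjusted p = 0.463). The mean over its probes changed by -0.26 (limma adjusted p = 0.456). These probes measure the same 6 RNA samples and are not replicates.

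Shank3 and the Homer genes complete the excitatory scaffold. Shank3 gave 10.06, 9.92 and 10.01 in KA-SE, against 10.20, 9.96 and 9.91 in saline (-0.027 ± 0.120), while its dimmer probe differed by 0.22 ± 0.138. Homer1, which crosslinks SHANK proteins and metabotropic glutamate receptors, gave 9.91, 9.72 and 9.93 in KA-SE and 9.92, 9.96 and 10.06 in saline. Its groups overlapped, and its tested probes differed by -0.13 and -0.18 (limma adjusted p = 0.888 and 0.799), the first by -0.067 without KA-SE replicate 2. Homer2 differed by -0.065 ± 0.105.

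Adhesion and inhibitory scaffold genes varied little between the groups. Nlgn1, a neuroligin of excitatory synapses, differed by 0.087 ± 0.141, and Nlgn2, its counterpart at inhibitory synapses, by -0.038 ± 0.105. Gphn, which encodes gephyrin, gave 9.88, 9.91 and 9.70 in KA-SE, against 9.71, 9.86 and 9.88 in saline, with full overlap. Its 5 tested probes had changes from -0.21 to 0.16, and the brightest had 0.013 ± 0.115, or -0.10 under median scaling.

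Other synaptic genes outside the 37 were listed by function. Of the other genes of vesicles, SNAREs and release, 57 of 68 were tested, 36 were negative, and the median log2 change was -0.042. None passed in limma, and at an unadjusted p under 0.05, 3 were lower and 1 higher in KA-SE, beside 2.59% and 5.85% of all genes. The lowest p belonged to Rph3a, the RAB3 effector rabphilin, with 9.76, 9.85 and 9.73 in KA-SE and 10.11, 10.12 and 10.03 in saline (-0.30 ± 0.107, limma adjusted p = 0.444). Doc2a, a calcium-binding protein of release, and Lin7a, a PDZ domain scaffold, differed by -0.63 and -0.25. On KA-SE replicate 1, Doc2a had a signal of 4.62, below that of a probe not detected there (4.67). Doc2a was thus tested only through saline, where it was higher, so that the filter shares in its low p. Syt9, another synaptotagmin, differed by 0.76 ± 0.313, with groups that overlapped.

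Of the genes of vesicle endocytosis and recycling, 24 of 29 were tested, 16 were negative, and the median was -0.057. None passed, and at an unadjusted limma p under 0.05 there was 1 lower and 0 higher, beside 2.59% and 5.85% of all genes. That gene was Dnm1, the dynamin that pinches vesicles from the membrane. It gave 7.73, 7.83 and 7.18 in KA-SE, against 8.09, 8.03 and 8.12 in saline, without overlap (-0.50 ± 0.163, limma adjusted p = 0.380). Its 2 other probes differed by -0.41 and -0.30.

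Of the other postsynaptic scaffold and adhesion genes, 61 of 75 were tested, 45 were negative, and the median was -0.056. None passed, and at an unadjusted limma p under 0.05, 7 were lower and 0 higher in KA-SE. Begain, a binding partner of PSD-95, gave 5.95, 5.78 and 5.53 in KA-SE and 6.19, 6.14 and 6.22 in saline (-0.43 ± 0.129, limma adjusted p = 0.320). Cacng3, an auxiliary subunit of AMPA receptors, differed by -0.46 and, on its other probe, by -0.48. The adhesion gene Lrfn2 and the AMPA receptor-associated gene Prrt1 differed by -0.28 and -0.29. These 7 of 61 genes can be read beside the 2.59% of all genes that were lower at that limit, and no test of the list was made.

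**Figure D4:**
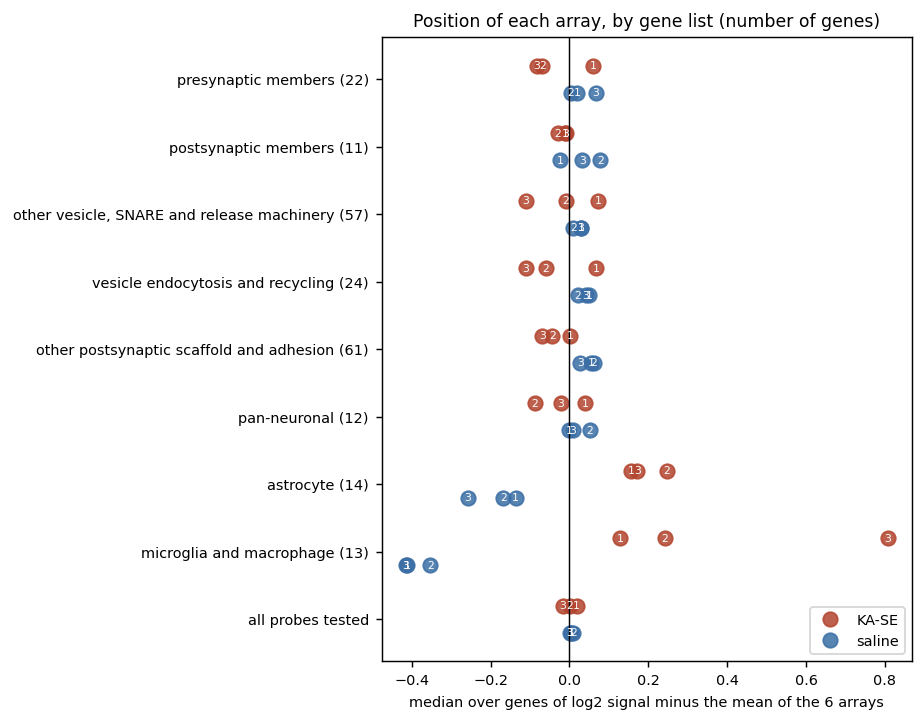
Median over the genes of each list (rows, number of tested genes in brackets) of the log2 signal minus the gene's mean over the 6 arrays, 1 point per array with its replicate number, KA-SE in red above saline in blue. Presynaptic and postsynaptic medians stay between -0.083 and 0.078, whereas the astrocyte and the microglia lists separate the groups, with KA-SE replicate 3 at 0.81 for microglia.

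Arrays were then compared by the median position of each list relative to the mean of the 6 arrays. The 22 presynaptic genes lay at 0.059, -0.069 and -0.083 in KA-SE, against 0.019, 0.0036 and 0.068 in saline. The 11 postsynaptic genes lay at -0.0096, -0.029 and -0.010 in KA-SE, against -0.023, 0.078 and 0.033 in saline. By these median positions, the KA-SE and saline arrays overlapped in both lists. Summed linear signals of the presynaptic genes overlapped too, from 90074 to 100220 in KA-SE and from 93043 to 98769 in saline. Those of the postsynaptic genes did not, with 16995 to 17930 in KA-SE against 18322 to 19946 in saline. The brightest probe, here that of Dlgap1, weighs most in such a sum. For the 12 tested pan-neuronal markers the sums overlapped, from 53470 to 57608 in KA-SE and from 54532 to 58085 in saline. Of these 12, 7 were negative, with a median change of -0.033.

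Markers of glia and vessels were compared on the same arrays. All 13 tested microglia and macrophage markers were higher in KA-SE, of which 3 passed, and their summed signal ranged from 5451 to 8505 in KA-SE, against 3770 to 3924 in saline. Of the 14 astrocyte markers, 13 were higher and 2 passed, with sums from 54096 to 57254 in KA-SE and from 39040 to 42200 in saline. Gfap, the intermediate filament of astrocytes, rose 3.72-fold (limma adjusted p = 0.00057). Of 9 oligodendrocyte markers, 8 were higher in KA-SE with a median of 0.14 and sums from 55032 to 60045, against 51995 to 52905 in saline, and of 12 endothelial and mural markers, 9 were higher with a median of 0.21 and sums from 2356 to 2979, against 2079 to 2655 in saline. No oligodendrocyte, endothelial or mural marker passed. With 0.05 as the limit of the unadjusted limma p, 2 oligodendrocyte markers were higher, beside 5.85% of all genes. The only marker of the endothelial and mural list at that limit, Kcnj8, was lower, beside 2.59% of all genes. Its signals on KA-SE replicates 1 and 2, 4.64 and 4.44, lay below those of a probe not detected there (4.67 and 4.52). Kcnj8 thus entered the test through saline alone, where its signal was higher, and the filter shares in its low p. KA-SE replicate 3 had both the highest microglial position, at 0.81, and the lowest presynaptic position, at -0.083 against -0.069 for KA-SE replicate 2. For the postsynaptic genes and for all 33, KA-SE replicate 2 was lowest. It lay at -0.029 and -0.046, against -0.010 and -0.027 for KA-SE replicate 3. The part of these cell types in the synaptic values was not tested.

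The tissue label was compared with marker genes. Of 13 markers listed for dentate granule cells, 7 were tested, among them Prox1 and C1ql2. Calb1, Tdo2, Stxbp6, Btg2 and Npnt did not pass the detection filter. The sum of the 7 tested markers ranged from 7132 to 8911 in KA-SE and from 6018 to 6976 in saline. Yet 4 of the 7 had a negative log2 change. At an unadjusted limma p under 0.05, 2 of the 7 were higher and 1 lower in KA-SE, beside 5.85% and 2.59% of all genes. Of 14 listed pyramidal cell markers of CA1 and CA3, 12 were tested. Whether their signal came from neighbouring fields or from cells of the DG was not tested. Pyramidal sums ran from 16330 to 16608 in KA-SE, against 16778 to 17523 in saline. Of the 12, 6 were negative, and 3 were lower and 0 higher at that limit. Of 8 listed hilar mossy cell markers, 6 were tested, with sums from 6140.5 to 6475 in KA-SE and 6572 to 7077 in saline. In each of these lists the sums of the groups did not overlap, but the median positions did. For mossy cells, the positions were -0.14, 0.11 and -0.099 in KA-SE, against 0.11, 0.021 and 0.037 in saline. Of the 6 mossy cell genes, 3 were negative. The brightest probe weighs most in a sum, here that of C1ql2 for granule cells and of Ap2s1 for mossy cells. Ap2s1 was also listed for endocytosis. The part of these lists in the synaptic values was not tested. Summed choroid plexus and ependymal markers ranged from 11134 to 14368 in KA-SE and from 1153 to 32266 in saline, and the saline arrays thus differed widely in them. Without saline replicate 1, which had the highest position for this list, the median change of the 33 synaptic genes was -0.070. Probes detected per array numbered 21798 to 22771 of 45281.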

How the data were processed

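Per the labels and methods, labelled cRNA from the right DG of separate animals was measured on Illumina MouseWG-6 bead arrays, with 1 array for each mouse. The authors deposited raw probe intensity without background subtraction and a detection p-value for each probe and array. A further deposited table holds a score that the authors background-corrected, transformed and normalized, with log base and offset unknown. For the upstream software, versions were not given in the sources used here. The raw column names of 2 KA-SE arrays carry an additional digit, and these columns were assigned by their trailing replicate number.

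Raw intensities were corrected by normexp with negative controls inferred from the detection p-values (offset 16), quantile normalized and transformed to log2 (neqc, limma 3.58.1, R 4.3.3). A probe entered the test if each of the 3 arrays of at least 1 group had a detection p-value under 0.05 for it. Groups were compared by a two-sided moderated test in limma (lmFit and eBayes, 6.40 prior degrees of freedom). P-values were adjusted by Benjamini-Hochberg across the 21226 probes, with a threshold of 0.05. The procedure was tested on simulated data. The brightest tested probe stands for a gene. For a probe not detected in saline, the fold compares the KA-SE mean with the lowest detected signal of each saline array, or the probe's own if higher. Summed marker levels add the antilog of these signals. Levels of different probes cannot be compared. Probes were named from the platform annotation through RefSeq symbols, 34885 of 45281 with 1 gene.

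Members and gene lists were chosen with earlier results of these data known. Per-array values are given for the 12 members with the lowest p and for those whose probes differ in sign or by over 0.2, and of each other list the 4 genes with the lowest p are considered. The 1.5-fold limit for intervals, the joined RE1 motif, the promoter stretches shown, Slc17a6 and the second probes described were chosen after values were seen. Slides and scans were not used here, so array batches were not tested. Alternatives covered the offset, background correction, normalization, the deposited score, the detection filter, the variance prior, array weights, a replicate block, averaging of probes, an unadjusted p under 0.01 and omission of each array.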

Additional observations from a re-analysis of the deposited data

How the results depend on the processing

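No synaptic gene or probe passed an adjusted p of 0.05 under any alternative run, and the members and the other lists had counts of 0 there with each array left out. At an unadjusted limma p under 0.01, 1 of 65 member probes (of Rims1) was lower, beside 0.636% of all probes in that direction. That probe was tested only through saline, where it was higher. At the same limit, 1 of 61 genes of the other postsynaptic list passed, beside 3.17% of all genes. The median of the members was -0.17 under median scaling (presynaptic -0.17, postsynaptic -0.17), where all probes had a median of -0.10, and the other lists had -0.18 (postsynaptic), -0.16 (vesicle and SNARE) and -0.17 (endocytosis). Relative to all genes, the members' median was -0.060, and -0.068 under median scaling. In the deposited score, on its own scale, it was -0.024. With probes averaged per gene, the other postsynaptic list had -0.086. Groups did not overlap for 4 members under median scaling (12.1%, against 9.21% of all genes), and for 4 to 10 when each array was left out (12.1% to 30.3%, against 21.0% to 27.9% of all genes). The members' median then ranged from -0.079 to -0.038.

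Estimates near 0 changed sign. Under median scaling Dlg4 had -0.0033, Gphn -0.10, Sv2a -0.12 and Syt11 -0.10. Averaged over probes, Shank3 had 0.097, Sv2a -0.00025, Syn1 0.0044, Syt1 0.046 and Vamp1 -0.023, and with array weights Nrxn3 had 0.0060. With each array left out, ranges were -0.041 to 0.077 for Gphn, -0.38 to 0.032 for Nrxn2, -0.062 to 0.045 for Nrxn3, -0.082 to 0.061 for Shank3, -0.046 to 0.074 for Sv2a, -0.13 to 0.0019 for Syn1, -0.13 to 0.020 for Syt1 and -0.070 to 0.16 for Syt11. The cause was not tested.

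Replicate numbers were not taken to pair the arrays. Deviations of same-numbered arrays correlated at 0.022, 0.18 and 0.24. KA-SE replicates 2 and 3 each correlated best with their own number, and at -0.20 and -0.21 with saline replicates 3 and 2. KA-SE replicate 1 correlated at 0.022, 0.053 and -0.076 with saline replicates 1, 2 and 3. Whether same-numbered arrays shared a step of handling was not tested. With the replicate block, 0 members passed, and Dlg2 kept its change of -0.42 with a limma adjusted p of 0.237. The number of arrays limits the precision.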

Other observations

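Several genes of transmitters and synaptic organizers stood on the cell marker lists and were named after their values were seen. C1ql3, a secreted organizer of synapses, gave 6.14, 5.76 and 5.97 in KA-SE, against 6.30, 6.65 and 6.53 in saline (log2 change -0.54 ± 0.139, limma adjusted p = 0.233), without overlap. Its relative C1ql2, made by granule cells, gave 12.05, 12.43 and 12.37 in KA-SE and 11.98, 12.08 and 11.90 in saline, with overlap (0.29 ± 0.129, limma adjusted p = 0.597). Npy, a neuropeptide of hilar interneurons, gave 10.56, 11.40 and 11.76 in KA-SE, against 10.37, 10.62 and 10.48 in saline, with 1 KA-SE array inside the saline range (0.75 ± 0.247, limma adjusted p = 0.380). Cck, a neuropeptide of basket cells, gave 11.72, 11.89 and 11.75 in KA-SE and 12.23, 12.07 and 12.26 in saline, without overlap (-0.40 ± 0.114, limma adjusted p = 0.281). None of these passed.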
